A study of Homo sapiens with 3 samples.

Results

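The genes described here are POU5F1 and NANOG, which encode the transcription factors OCT4 and NANOG, together with 6 genomic copies of them: POU5F1B, POU5F1P3, POU5F1P4, POU5F1P5, NANOGP1 and NANOGP8. They were taken by name, through their Ensembl identifiers, from the 58051 genes counted, and all 8 were present. The data were RNA-seq read counts per gene from H9, an established line of human embryonic stem cells, in 3 replicates of 1 condition. The cells were wild type and untreated, grown in Essential 8 Flex medium on Vitronectin, and total RNA was sequenced after removal of ribosomal RNA. Nothing in the labels says whether the replicates came from separate cultures, so the spread given for each value is that between these 3 libraries and may be technical. The libraries held 10390984, 12024802 and 8655155 counted reads in replicates 1, 2 and 3. With a single condition there was no comparison between groups, and no test was made.

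OCT4 is a POU domain factor that binds the octamer motif, often next to SOX2, and NANOG is a homeodomain factor. Both stand at the centre of the network that keeps embryonic stem cells pluripotent, and both are silenced as the cells differentiate. Most of their copies are processed, meaning that a messenger RNA was copied back into the genome without its introns, whereas NANOGP1 came from duplication of the gene itself and kept introns. A read from a stretch that a copy shares with its parent carries no base that tells the source, and the sequences set how far the counts of these genes can be told apart.

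The likeness of each copy to its parent was read from the human reference genome, build hg38, with GENCODE 44 gene models. NANOGP8 differed least from its parent: over the aligned transcript it was 99.3% identical to NANOG, and in the 915 coding bases it had 5 substitutions and no gap. Its reading frame ran 305 codons to the stop, as in NANOG. NANOGP1 was 97.3% identical and kept the start codon, but a stop came after 8 codons. Stretches from 2 places are shown: in the first, NANOGP8 and NANOGP1 carry a single differing base at the same place, and in the second, which opens the coding sequence, NANOGP1 stands further from NANOG than NANOGP8 does. Each is read 5′ to 3′ along the gene, and capitals mark the bases that differ from NANOG. NANOGP2, a processed copy that was not on the list and whose counts are given with the others, is shown beside them. The first stretch covers coding bases 513 to 632 of NANOG, counted from 1 at the A of the start codon.
NANOG chr12:7794690-7794809 (plus strand): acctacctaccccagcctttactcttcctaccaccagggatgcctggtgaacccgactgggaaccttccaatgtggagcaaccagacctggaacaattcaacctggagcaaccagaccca
NANOGP8 chr15:35084479-35084598 (minus strand): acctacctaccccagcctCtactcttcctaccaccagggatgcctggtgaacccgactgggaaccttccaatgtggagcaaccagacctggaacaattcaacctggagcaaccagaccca
NANOGP1 chr12:7898498-7898617 (plus strand): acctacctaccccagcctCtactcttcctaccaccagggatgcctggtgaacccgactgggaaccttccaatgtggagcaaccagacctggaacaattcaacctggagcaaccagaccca
NANOGP2 chr2:222452676-222452795 (minus strand): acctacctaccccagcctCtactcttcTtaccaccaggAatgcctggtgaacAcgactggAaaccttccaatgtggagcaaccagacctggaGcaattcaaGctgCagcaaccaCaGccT
The second stretch covers coding bases 1 to 120 of NANOG.
NANOG chr12:7789615-7789734 (plus strand): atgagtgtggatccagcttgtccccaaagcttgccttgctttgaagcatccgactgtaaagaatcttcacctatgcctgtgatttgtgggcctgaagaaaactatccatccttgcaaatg
NANOGP8 chr15:35084991-35085110 (minus strand): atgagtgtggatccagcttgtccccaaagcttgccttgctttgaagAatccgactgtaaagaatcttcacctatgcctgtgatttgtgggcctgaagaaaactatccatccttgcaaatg
NANOGP1 chr12:7892576-7892695 (plus strand): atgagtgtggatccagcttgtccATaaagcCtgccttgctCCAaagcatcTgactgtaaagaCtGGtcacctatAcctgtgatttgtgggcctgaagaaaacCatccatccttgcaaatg

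NANOGP8 and NANOGP1 had the same letters throughout the first stretch, so a read from within it could be told from NANOG at only 1 base and could not be told between these copies at all. That base is T531C, given as the base of NANOG, its position and the base of the copy. T531C was present in all 9 other annotated NANOG copies that cover the position. In the same stretch NANOGP2 had 11 differing bases. The other coding substitutions of NANOGP8 were C47A, G144A, G246T and G759C. Of these, C47A and G759C were in none of the other copies covering them (7 and 8 copies), G144A was shared by 4 of 6, NANOGP1 among them, and G246T by 2 of 8. In the opening stretch NANOGP8 differed from NANOG by 1 base and NANOGP1 by 12.

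The processed copies of POU5F1 fell into a near and a far group. POU5F1P3 was 98.0% and POU5F1P4 97.1% identical to the POU5F1 transcript. POU5F1P5 was 86.3% identical and covered 58.6% of the coding bases, from base 419 to the end. The stretch shown covers coding bases 827 to 946 of POU5F1, in the part that all 3 copies hold, and capitals mark the bases that differ from POU5F1.
POU5F1 chr6:31164738-31164857 (minus strand): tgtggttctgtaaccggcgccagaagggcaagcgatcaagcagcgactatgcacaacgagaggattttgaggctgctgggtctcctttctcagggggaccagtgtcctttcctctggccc
POU5F1P3 chr12:8133908-8134027 (minus strand): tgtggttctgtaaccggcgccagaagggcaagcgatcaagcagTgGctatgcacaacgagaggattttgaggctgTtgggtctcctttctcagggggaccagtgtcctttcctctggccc
POU5F1P4 chr1:155434007-155434126 (plus strand): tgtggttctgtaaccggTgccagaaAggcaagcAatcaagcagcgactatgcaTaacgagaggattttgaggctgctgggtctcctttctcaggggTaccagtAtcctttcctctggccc
POU5F1P5 chr10:68010348-68010467 (minus strand): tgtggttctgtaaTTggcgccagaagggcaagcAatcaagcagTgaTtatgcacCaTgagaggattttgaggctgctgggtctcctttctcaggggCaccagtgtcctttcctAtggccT

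In that stretch POU5F1P3 had 3 differing bases, POU5F1P4 had 6 and POU5F1P5 had 10. The reading frame of POU5F1P4 ended after 19 codons, and the annotated span of POU5F1P3 begins at the last base of the start codon. Over the coding sequence, the longest run without any difference was 178 bases in POU5F1P3, 156 in POU5F1P4 and 48 in POU5F1P5. In the NANOG copies it was 322 bases in NANOGP1 and 284 in NANOGP8.

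**Figure D1:**
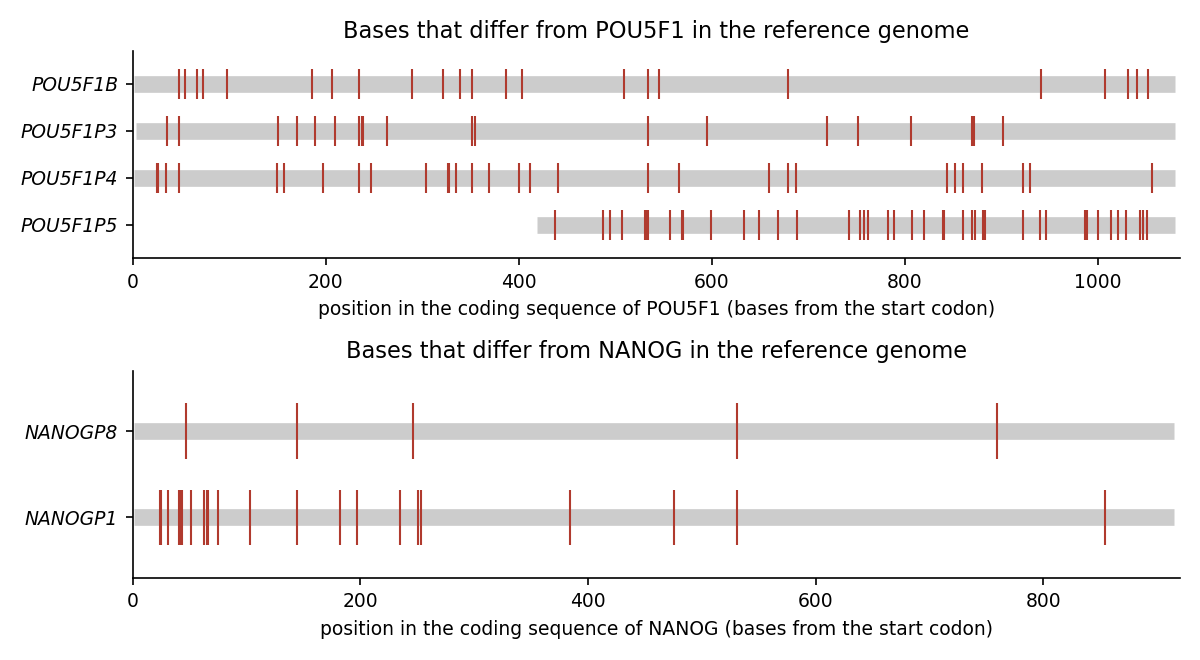
Substitutions of each listed copy against its parent, along the coding sequence of POU5F1 (top) and NANOG (bottom) in bases from the start codon; grey bars are the part of the coding sequence that the copy holds and each red line is 1 substituted base. NANOGP8 has 5 lines along its whole length, whereas POU5F1P5 is densely marked and begins at base 419.

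How much of each copy could not be told from its parent was described by cutting each copy into all its windows of 75 bases and looking for each window in the transcripts of the parent. A window that is absent from the parent can still occur in another copy, so these shares say nothing of placement among the copies. The read length is not given in the sources used here, so other lengths were tried as well. In NANOGP8, 1016 of 1812 windows (56.1%) were identical to a stretch of NANOG, and in NANOGP1 321 of 841 (38.2%) were. In POU5F1P3 the share was 26.9% and in POU5F1P4 17.9%. POU5F1B, a copy that still has an open reading frame, had 6.03%, and POU5F1P5 had none of 584. The low share of POU5F1B is over 4691 windows, since its annotated transcript is much longer than the part that aligns to POU5F1. Seen from the parent the order changed: 21.2% of the windows of POU5F1 occurred in POU5F1B, 20.2% in POU5F1P3 and 13.6% in POU5F1P4. At least 1 listed copy held 45.4% of the windows of POU5F1 and 21.4% of those of NANOG.

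POU5F1 (ENSG00000204531, protein-coding, chr6:31164337-31180731, minus strand) was the most abundant of the 8 genes. It had 6063, 6687 and 5189 reads in replicates 1, 2 and 3. In TPM, a unit that divides the counts by the length of the annotated exons and scales each library to the same sum, its level was 812, 770 and 815, with a mean of 799 ± 24.9 (SD, n = 3). The mean was 425 TPM with only exon bases shared with no other gene as the length of every gene. The length of POU5F1 itself fell from 2870 to 2622 bases, which alone raises its level. The lower value thus came from the total, in which the lengths of other genes shrank. All 3 replicates lay close together, and replicate 2, the deepest library, was the lowest. Of the 2870 exon bases of POU5F1, 248 (8.64%) are also exon of TCF19 on the opposite strand, which had 381, 447 and 405 reads, and whether the authors' counting used the strand is not given in the sources used here.

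NANOG (ENSG00000111704, protein-coding, chr12:7787794-7799146, plus strand) had 4189, 4528 and 2983 reads. Its level was 298, 277 and 249 TPM, with a mean of 275 ± 24.7 (SD, n = 3). The mean was 134 TPM with only exon bases shared with no other gene as the length of every gene. All 5392 exon bases of NANOG are unshared, so this lower value came from the total and not from its own length. Replicate 3 was the lowest and replicate 1 the highest. No exon of another gene overlaps NANOG. In each replicate NANOG was below POU5F1, and the ranges of the 2 genes did not overlap.

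Among 19629 protein-coding genes, POU5F1 ranked 115 by mean TPM, with all annotated exon bases as length. The gene just above it was PCNA, the sliding clamp of DNA replication, at 802 ± 36.4 TPM, and the gene just below was NPM1, a nucleolar protein of ribosome assembly, at 796 ± 42.8 TPM (SD, n = 3). POU5F1 did not differ from either beyond the spread of the replicates. NANOG ranked 449, between the vesicle tethering factor gene USO1 at 276 ± 13.1 TPM and the tetraspanin gene CD63 at 275 ± 10.8 TPM (SD, n = 3). Here too the neighbours lay within the spread.

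The ratio of NANOG to POU5F1 in TPM was 0.368, 0.360 and 0.306, with a mean of 0.345 ± 0.034 (SD, n = 3). Replicate 3 had the lowest ratio. The ratio depends on the unit and the length: it was 0.691, 0.677 and 0.575 in counts, without division by length, and 0.764 on average with coding lengths alone. The value of 0.764 divides all exon reads by the coding bases only, 915 of 5392 for NANOG and 1080 of 2870 for POU5F1. By construction this raises NANOG more than POU5F1. The sum of 6 mesoderm markers was also lowest in replicate 3, at 26.3 TPM against 39.7 and 32.5 TPM. That sum followed MIXL1 (28.1, 21.9 and 16.8 TPM) and EOMES (8.83, 6.33 and 5.05 TPM), whereas TBX6 and HAND1 were highest in replicate 3, and TBXT and MESP1 were not lowest there. The sum of 5 ectoderm markers was highest in replicate 3, at 6.80 TPM against 4.51 and 5.90 TPM. It followed SOX1 (1.94, 3.12 and 3.86 TPM). PAX6 (1.73, 1.67 and 1.83 TPM) and TFAP2A (0.280, 0.362 and 0.548 TPM) were also highest there. SOX10 was highest in replicate 2, and NEUROG2 had no read. The part of these cells in the ratio was not tested. On the log2 scale of CPM, which are counts scaled by the library's total alone, replicate 3 stood at -0.18 for NANOG and 0.07 for POU5F1 against the mean of the other 2 replicates. Genes with an exon GC content within 2 percentage points of NANOG's 44.9% had a median of -0.05 in replicate 3, with quartiles of -0.12 and 0.04, and NANOG lay below them. In replicate 1 NANOG stood at 0.16, above the upper quartile of 0.08 for such genes, and in replicate 2 POU5F1 stood at -0.09, below the lower quartile of -0.07 for genes of its own GC content. The part of GC content in these differences was not tested. The GC classes held only genes with at least 100 reads in every replicate. In an alternative chosen after seeing the data, the median deviation of its GC class was removed from each gene. That median was first rescaled from a deviation against the other 2 replicates to one against the mean of all 3. The ratio was then 0.364, 0.356 and 0.314. In bulk RNA, fewer cells with a transcript and less of it in each cell cannot be told apart.

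The spread between libraries can be set against counting error, which for these 2 genes is small. The SD of CPM was 2.90 times the SD that counting alone gives for POU5F1 and 4.84 times for NANOG. For NANOGP8 it was 1.89 times and for NANOGP1 1.21 times. For POU5F1B it was 0.478 times, so at 8 to 12 reads the counting error is wider than the differences seen.

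**Figure D2:**
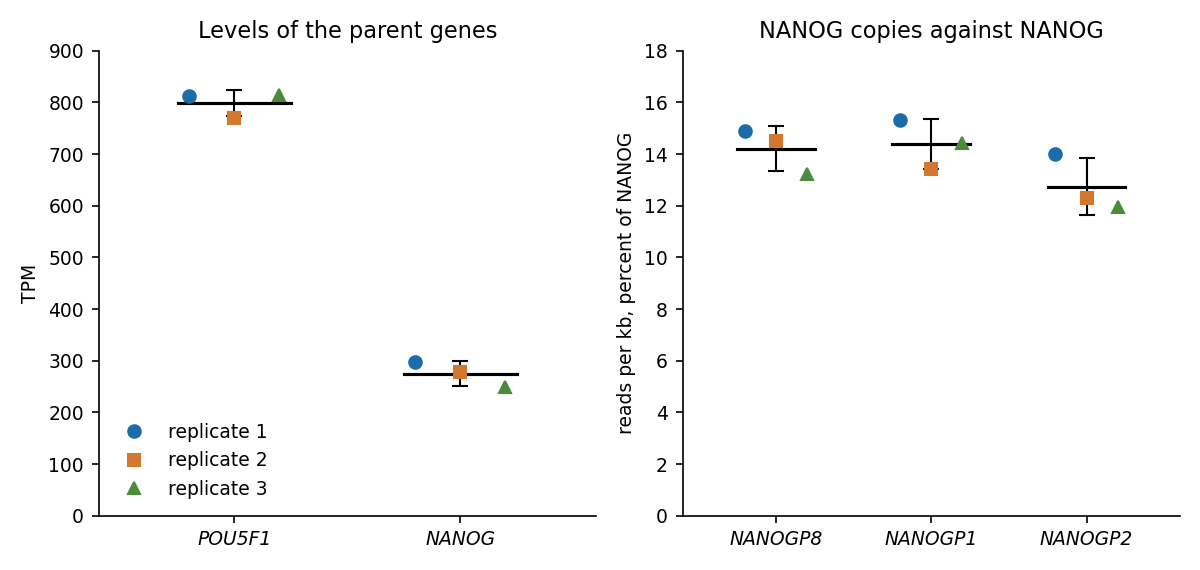
Left, levels of POU5F1 and NANOG in TPM; right, reads per kb of exon on 3 NANOG copies as a percent of NANOG; symbols are the 3 replicates, horizontal lines the means and bars the SD. POU5F1 lies at 799 TPM and NANOG at 275 TPM, and the 3 copies sit between 11.9% and 15.3% of NANOG, with all 5392 exon bases of NANOG as its length.

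NANOGP8 (ENSG00000255192, chr15:35083410-35085295, minus strand) is an intronless copy that the annotation calls protein-coding. It had 218, 230 and 138 reads, or 44.4, 40.3 and 33.0 TPM, with a mean of 39.2 ± 5.79 TPM (SD, n = 3). Replicate 3 was again the lowest, at -0.33 on the log2 scale of CPM against the mean of the others, and replicate 1 stood at 0.26. Per kb of exon, NANOGP8 had 14.9%, 14.5% and 13.2% of the reads of NANOG in the same replicate, with a mean of 14.2 ± 0.869% (SD, n = 3). This value rests on the 5392 exon bases annotated for NANOG, and with the 915 coding bases alone as the length of NANOG it was 2.41%. Dividing by the parent's own count thus left a narrower spread than the levels themselves had.

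NANOGP1 (ENSG00000176654, chr12:7892576-7898903, plus strand, the same strand as NANOG) is annotated as a transcribed unprocessed pseudogene. It had 109, 103 and 73 reads, or 45.8, 37.2 and 35.9 TPM, with a mean of 39.6 ± 5.34 TPM (SD, n = 3). Replicate 1 was the highest for this copy too. Per kb it had 15.3%, 13.4% and 14.4% of the reads of NANOG, with a mean of 14.4 ± 0.965% (SD, n = 3), or 2.44% with the coding length of NANOG. The levels of NANOGP1 and NANOGP8 in TPM overlapped. In CPM, without division by length, NANOGP8 (21.0, 19.1 and 15.9) was above NANOGP1 (10.5, 8.57 and 8.43) in every replicate, so their order depends on the length used. Of the 915 exon bases of NANOGP1, 865 also belong to ENSG00000290484, a long noncoding RNA on the same strand that was not among the counted identifiers. If all reads of NANOGP1 were divided by only the 50 bases outside it, the value per kb would be 263% of NANOG. How many of the reads lay in those 50 bases is not known, so this value is no estimate of the level. The level of NANOGP1 depends on which gene model was counted.

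The NANOG copies took a small and even share of the family's reads. Of all reads on NANOG, NANOGP1 and NANOGP8, NANOGP8 held 4.83%, 4.73% and 4.32% in replicates 1, 2 and 3. The exact binomial (Clopper-Pearson) 95% intervals, which cover counting error only because copies made by PCR are not independent molecules, ran from 4.22 to 5.49%, from 4.15 to 5.37% and from 3.64 to 5.08%. NANOGP1 held 2.41%, 2.12% and 2.29%, with intervals of 1.99 to 2.90%, 1.73 to 2.56% and 1.80 to 2.87%. For each copy the 3 intervals overlapped, and whether the share differed between replicates was not tested. NANOGP8 and NANOGP1 together had 327, 333 and 211 reads, a mean share of 6.90 ± 0.320% (SD, n = 3).

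The copies of POU5F1 had far fewer reads. POU5F1B (ENSG00000212993, chr8:127322183-127420066, plus strand) is annotated as protein-coding, kept the start codon and read 359 codons against 360 in POU5F1, with 23 coding substitutions. It had 8, 12 and 9 reads, or 0.619, 0.799 and 0.817 TPM, with a mean of 0.745 ± 0.109 TPM (SD, n = 3). That was 0.0934 ± 0.0150% of the reads per kb of POU5F1 and 0.161 ± 0.026% of the family's reads (SD, n = 3). With the 1080 coding bases alone as the length of POU5F1, the value per kb was 0.0352%. By mean TPM it ranked 13700 of the protein-coding genes. The long noncoding RNA gene PCAT1 shares 848 of its 4964 exon bases (17.1%) on the same strand and had 4, 6 and 3 reads.

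POU5F1P4 (ENSG00000237872, chr1:155433178-155434262, plus strand) had 1, 3 and 3 reads, a mean of 0.838 ± 0.451 TPM (SD, n = 3). It lies in an intron of ASH1L, a histone methyltransferase gene on the opposite strand with 701, 808 and 591 reads. POU5F1P5 (ENSG00000236375, chr10:68010205-68010862, minus strand) had 1, 0 and 1 reads and lies on the same strand in an intron of HERC4, a ubiquitin ligase gene with 484, 588 and 423 reads. POU5F1P3 (ENSG00000235602, chr12:8133772-8134849, minus strand) had 0, 2 and 0 reads and lies within CLEC4A, a lectin receptor gene of immune cells with 0, 0 and 2 reads. All 3 are processed pseudogenes, none had more than 3 reads in any replicate, and a count of 0 itself allows up to 3 reads (a one-sided 95% limit), which is 0.249 to 0.347 CPM here. The two-sided 95% Poisson interval of a count of 0 reaches 3.69 reads. The 4 listed POU5F1 copies together had 10, 17 and 13 reads, 0.165%, 0.254% and 0.250% of the POU5F1 family. Whether the processed pseudogenes are transcribed was not detectable at this depth.

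**Figure D3:**
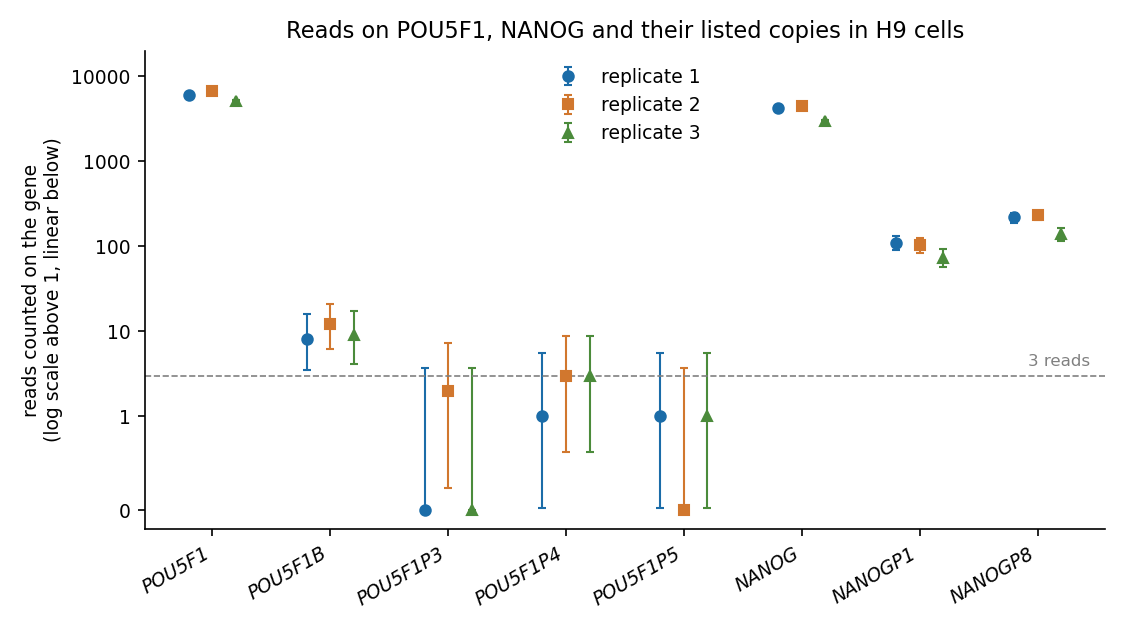
Reads counted on each of the 8 genes in each replicate, on an axis that is logarithmic above 1 read and linear below; bars are exact 95% Poisson intervals for counting error and the dashed line marks 3 reads. The parents lie at or above 2983 reads, NANOGP8 and NANOGP1 between 73 and 230, POU5F1B between 8 and 12, and the 3 processed POU5F1 pseudogenes at or below 3.

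In order of mean TPM the genes ran POU5F1, NANOG, NANOGP1, NANOGP8, POU5F1P4, POU5F1B, POU5F1P5 and POU5F1P3. The ranges over replicates were apart between POU5F1 and NANOG, between NANOG and NANOGP1, and between NANOGP8 and POU5F1P4. NANOGP1 and NANOGP8 overlapped on this scale, and so did each pair of neighbours among the 4 POU5F1 copies. NANOGP1 stood above NANOG when all its reads were divided by its 50 unshared bases, a length that does not match those reads. Of the 6 listed copies, 3 had more than 3 reads in every replicate: NANOGP8, NANOGP1 and POU5F1B. Among all 10602 processed pseudogenes counted, 3.59% passed that limit, and among the protein-coding genes 71.9% did. NANOGP8 and POU5F1B are annotated in the latter class and NANOGP1 in neither, while the 3 listed processed pseudogenes did not pass. A mean of at least 1 TPM was reached by POU5F1, NANOG, NANOGP1 and NANOGP8, 4 of the 8 genes, and by 67.4% of protein-coding genes.

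The annotation holds 12 further copies of the parents. NANOGP2 (ENSG00000228670, processed, chr2:222452400-222453126, minus strand) alone had more than 3 reads in every replicate, with 79, 75 and 48, or 35.2 ± 6.07 TPM (SD, n = 3). Per kb this was 12.7 ± 1.10% of NANOG (SD, n = 3), near the values of NANOGP1 and NANOGP8. NANOGP2 lies in an intron of SGPP2, a gene of sphingolipid breakdown on the opposite strand with 6, 10 and 12 reads. Of the other 11 copies, 6 had no read in any replicate, and the highest count of the rest was 3. With all annotated copies in the family, the share of the reads that lay on NANOG copies was 8.91%, 8.32% and 8.16%.

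The NANOG copies with most windows in common with NANOG, NANOGP8 and NANOGP1, also had the most reads per kb. NANOGP2 was 92.2% identical to NANOG, had 2.45% of its windows in common with it and had 12.7% of its reads per kb. NANOGP7, with 4.15% of windows in common, had 1, 0 and 1 reads. NANOGP4, with 2.98%, had 1, 0 and 2 reads. POU5F1P3, with 26.9% in common with POU5F1, had 2 reads in all 3 libraries. Whether reads of the parents were placed on copies, or reads of copies on the parents, was not tested, since the deposited counts do not show which bases the reads covered.

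**Figure D4:**
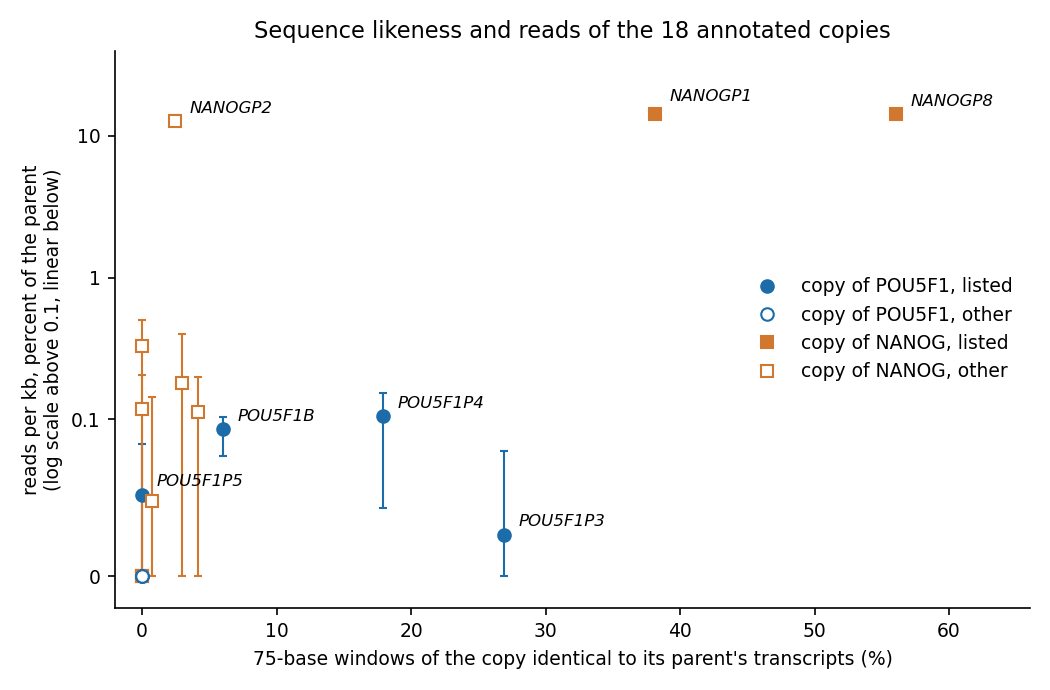
Each of the 18 annotated copies by the percent of its 75-base windows found unchanged in the parent's transcripts (horizontal) and by its reads per kb as a percent of the parent (vertical, logarithmic above 0.1% and linear below); points are means of 3 replicates, bars the lowest to the highest replicate, and filled symbols the listed copies. NANOGP8, NANOGP1 and NANOGP2 lie between 12.7% and 14.4% of NANOG at 56.1%, 38.2% and 2.45% of windows, while POU5F1P3 and POU5F1P4 lie near 0.1% or below at 26.9% and 17.9%.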

How the data were processed

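Total RNA of 3 replicates of H9 cells was sequenced by the authors after ribosomal RNA depletion. Per the study's methods and the submitters' processing notes, reads were trimmed with Trim Galore 0.4.4 and aligned to GRCh38 (hg38) with TopHat2 2.1.1. The deposited values are raw counts of reads per Ensembl gene, without normalization. Which tool counted them, with which annotation, whether by strand, and how reads that match several places were treated is not given in the sources used here. The study's own TPM from Cufflinks 2.2.1 were not used.

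The counts were joined to GENCODE 44 by identifier (56948 of 58051 matched), and TPM was computed with the union of exons as length (Python 3.11.15, pandas 2.3.3). Copies were aligned to the parent's transcript with Biopython 1.88 (match 2, mismatch -3, gap opening -5, gap extension -2). TMM factors came from edgeR 4.0.16 and size factors from DESeq2 1.42.0, for scaling only. Exact intervals came from scipy 1.17.1. The calculations were tested on simulated data. The text names the 8 genes, other copies with more than 3 reads in every replicate (NANOGP4 and NANOGP7 were named after their values were seen), genes that overlap or hold a listed gene, and neighbours in level. The members and gene lists were chosen with earlier results of these data known. Alternatives covered length, scaling, depth, replicates left out, the family's members and window length.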

Additional observations from a re-analysis of the deposited data

How the results depend on the processing

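The 24 values examined were recomputed 214 times in all, and 62 recomputations moved a value by more than the SD of the replicates or, for shares of windows, out of the interval of the share. The number of listed copies above the limit, 3, is outside this tally's rule and counted as moved only beyond 1.5 times, which did not occur. Leaving out 1 of 3 replicates cannot shift a mean by its SD, so those values are given as ranges: 791 to 813 TPM for POU5F1, 263 to 288 TPM for NANOG, 0.333 to 0.364 for their ratio, and 0 to 0.307 TPM for POU5F1P3, whose reads all came from replicate 2. By construction, TMM or DESeq2 scaling hardly shifts a mean, so 0 of 16 values moving decides nothing. With 1 condition, no paired analysis was possible. The levels of POU5F1 and NANOG moved furthest with the choice of gene length, and also moved with the genes held in the total. The level of POU5F1, 799 TPM, was 580 CPM without division by length, 758 TPM with the longest transcript, 425 TPM with unshared exon bases only, 832 TPM without mitochondrial genes in the total and 989 TPM with protein-coding genes only. That of NANOG, 275 TPM, was 375 CPM, 215 TPM with the longest transcript, 134 TPM with unshared exon bases and 340 TPM with protein-coding genes only. The ratio of NANOG to POU5F1, 0.345, was 0.648 in CPM, 0.284 with the longest transcripts and 0.764 with coding lengths, below 1 throughout. Reads per kb against the parent fell to 2.41% for NANOGP8, 2.44% for NANOGP1 and 0.0352% for POU5F1B when the parent's reads were divided by its coding length alone, which by construction raises the parent, since its other exon bases hold reads too. With unshared exon bases NANOGP1 came to 263%, since all its reads were divided by the 50 bases left to it. By this mismatch of reads and length the order turned, with NANOGP1 at 352 TPM and NANOG at 134 TPM. With the longest transcript POU5F1B came to 0.0772%. In CPM, POU5F1B (0.936) was above POU5F1P4 (0.231), the reverse of their order in TPM, where their ranges overlapped. Their order in TPM also turned with unshared exon bases (0.437 against 0.408 TPM) and without replicate 3 (0.709 against 0.634 TPM). In CPM, NANOGP8 (18.7) was above NANOGP1 (9.16), whose ranges overlapped in TPM. With unshared exon bases NANOGP8 was at 19.0 TPM, below NANOGP1. The coding-length and GC alternatives were chosen after seeing the data. The share of the NANOG family's reads on copies rose from 6.90% to 8.47% with all annotated copies.

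Window length sets the likeness values. With windows of 50, 100 and 150 bases the share identical to the parent was 70.7%, 43.0% and 24.4% in NANOGP8, 47.5%, 31.1% and 22.6% in NANOGP1, and 41.2%, 15.9% and 3.34% in POU5F1P3. With up to 1 and up to 2 mismatches it was 94.0% and 94.4% in NANOGP8, 62.2% and 71.8% in NANOGP1, and 52.8% and 75.8% in POU5F1P3. Against the parent's genomic sequence it was 50.3% in NANOGP8 and 17.2% in POU5F1P3. With more than 0 reads as the limit 4 listed copies passed, and with at least 10 reads, or with the counts thinned to 10%, 2 did. Counts of 12 or fewer limit every value of the POU5F1 copies. Of the 214 recomputations, 117 were of secondary values of single listed copies (TPM, reads per kb or shares of windows). Of these 117, 27 moved (11 higher and 16 lower).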

Other observations

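Genes that work with OCT4 and NANOG were read from a list of 18 partners and targets. All 18 had more than 3 reads in every replicate, against 71.9% of protein-coding genes, and 17 reached a mean of 1 TPM, against 67.4%, with a median of 93.2 TPM and a range of 0.430 to 2576 TPM. The highest was LIN28A, an RNA-binding protein that blocks let-7 maturation, at 2576 ± 64.7 TPM, followed by DPPA4, a chromatin-associated protein of pluripotent cells, at 710 ± 23.3 TPM, TDGF1, a NODAL co-receptor, at 559 ± 43.0 TPM, and ZFP42 at 430 ± 31.6 TPM (SD, n = 3). SOX2, the partner of OCT4 on DNA, was at 397 ± 42.7 TPM, between POU5F1 and NANOG, and it was named after its value was seen. The lowest was ESRRB, an orphan nuclear receptor of the naive state in the mouse, at 0.430 ± 0.036 TPM (SD, n = 3).

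Of the 14 other POU domain genes, 8 had more than 3 reads in every replicate and 7 reached 1 TPM, against 71.9% and 67.4% of protein-coding genes, and all were lower than POU5F1. The highest were POU2F1, the broadly expressed OCT1 gene, at 68.2 ± 4.32 TPM, POU3F4 at 12.2 ± 1.64 TPM and POU3F1 at 5.95 ± 1.12 TPM (SD, n = 3). The list of pluripotent stem cell markers holds POU5F1 and NANOG themselves and 5 genes of the network list, and the remaining members were L1TD1 at 1215 ± 144.5 TPM and DNMT3B at 1200 ± 11.01 TPM (SD, n = 3). For the marker lists that follow, the number with more than 3 reads in every replicate is likewise to be read against 71.9% of protein-coding genes. The summed level of mesoderm markers was 39.7, 32.5 and 26.3 TPM in replicates 1, 2 and 3 (3 of 6 genes). MIXL1, a factor of the primitive streak, made up 22.3 ± 5.66 TPM of it and EOMES 6.74 ± 1.92 TPM, while TBXT was at 1.75 ± 0.421 TPM (SD, n = 3). That of endoderm markers was 17.0, 11.5 and 13.3 TPM (5 of 5), and that of ectoderm markers 4.51, 5.90 and 6.80 TPM (4 of 5). Trophoblast and amnion markers summed to 53.7, 62.0 and 68.5 TPM (3 of 6), of which TFAP2C, which pluripotent cells also express, made up 52.6 TPM and CDX2 none. KRT7 (6.70 TPM) and GATA3 (1.67 TPM) also had more than 3 reads in every replicate. HAND1 was at 0.306 TPM and CGA at 0.0645 TPM. Fibroblast markers summed to 198, 185 and 181 TPM (4 of 6), of which THY1, also a surface marker of human embryonic stem cells, made up 145 TPM. The collagen genes COL1A2, COL1A1 and COL3A1 were at 25.6, 14.6 and 2.71 TPM, LUM at 0.178 TPM and DCN at 0.0985 TPM. Blood markers summed to at most 0.550 TPM (1 of 3). The fibroblast sum followed THY1 (156, 144 and 134 TPM), whereas the collagen genes were highest in replicate 3. The part of any of these cells in the levels of POU5F1 and NANOG was not tested.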
